A study of Rattus norvegicus with 4 samples.

Results

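Gene expression in cultured rat hippocampal progenitor cells kept with KHS101 at 5 uM was compared with that in the same kind of cells kept with 1 uM retinoic acid together with forskolin. All genes with a name on the array entered the comparison. Of 14217 named genes, 8606 were measured, meaning that at least 1 of the 2 arrays lay above a floor of log2 = 5 taken as the limit of specific signal. The study holds 4 arrays and no replicates: besides the pair compared, there was an array of cells given KHS101 at the lower concentration of 1.7 uM and an array of cells given the solvent dimethyl sulfoxide (DMSO, 0.1%), the negative control, retinoic acid with forskolin being the positive control. Cells of every group came from Fisher 344 rats, were used at early passage and seeded in N2 medium at 1000 cells on each square centimetre, and stayed with the compound for 4 days. The labels give no forskolin concentration, the design text mentions only retinoic acid for that group, and the labels do not say from which animals or separate cultures the RNA came. So each difference below compares 1 array with 1 array, has no error and no test, and cannot be set against the spread between cultures.

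KHS101 is a small molecule studied because it pushes hippocampal progenitor cells towards neurons, and it was reported to act on TACC3, a protein of the spindle and a partner of the transcription factor ARNT. Retinoic acid is a vitamin A derivative that enters the nucleus and binds its receptors on DNA, where it switches on genes that include those for its own breakdown. Forskolin activates adenylyl cyclase and so raises cyclic AMP, which acts through the transcription factor CREB. The comparison asks how the expression profile under KHS101 differs from that under this established pair of differentiating agents. No array is labelled with retinoic acid alone or forskolin alone, so the parts of these agents cannot be told apart. Where only retinoic acid is named for an array below, the array with both agents is meant.

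Values are log2 expression values as deposited, and the values of a gene are given below in the order KHS101 5 uM, KHS101 1.7 uM, retinoic acid with forskolin, DMSO. Between 8389 and 8471 named genes lay above the floor on each array. Of 12 reference genes, 11 differed by less than 2-fold between KHS101 5 uM and retinoic acid with forskolin, and their median difference was 0.14; the exception was Polr2a, a subunit of RNA polymerase II, at 7.81, 7.96, 9.03 and 8.63 (2.33-fold lower). For beta-actin, the 3' control probe set exceeded the 5' set, a sign of RNA length, by 1.54 with KHS101 5 uM and 1.37 with retinoic acid and forskolin, for hexokinase by 0.96 and 0.66, and for GAPDH by -0.11 and -0.12. The control probe set for 5S ribosomal RNA read 7.89 with KHS101 5 uM and 5.27 with 1.7 uM, and was below the floor on the control arrays, at 2.54 (retinoic acid with forskolin) and 2.81 (DMSO) as deposited. The part of RNA quality and RNA composition in the results was not tested.

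KHS101 at 5 uM gave higher values than retinoic acid with forskolin for 769 of 8606 genes (8.94%) and lower values for 880 (10.2%), at a threshold of 2-fold. The largest differences on the higher side were those of Hmox1, which breaks down haem, Cth of cysteine synthesis and the pseudokinase Trib3. Those on the lower side were Mgp and the retinoic acid hydroxylase Cyp26a1, followed by Cytl1, a small secreted protein of cartilage. Differences of 4-fold or more numbered 163 higher and 194 lower, and differences of 16-fold or more 16 and 9. For 63 of the higher and 77 of the lower genes 1 of the arrays was at the floor, so their difference is a lower bound, written "at least". Among called genes with a second probe set above the floor, 229 of 229 other probe sets of higher genes and 269 of 272 of lower genes differed in the same direction. Of these other probe sets, 180 (78.6%) and 187 (68.8%) also passed 2-fold that way, and 0 passed it the opposite way. The remaining 3, named after their values were seen, were those of Dlg4, Kmt2a and Tmem276, at log2 differences of 0.0021, 0.44 and 0.034. Among the 43 genes chosen by the naming rule that had another probe set above the floor, 15 had one more than 1.5-fold from the one used. Other probe sets that were at the floor on both arrays are left out of these counts. Some genes named below have such a probe set without its being mentioned there, among them Epas1, Lonp1, Sesn2, Bmp2, Smad9, Ndrg2, Mx2 and Cd93. Probe sets of 1 gene read the same RNA on the same array, so they are no replicates of a group, and they may read different transcripts. In bulk RNA, fewer cells of a type and less RNA per cell cannot be told apart.

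**Figure D1:**
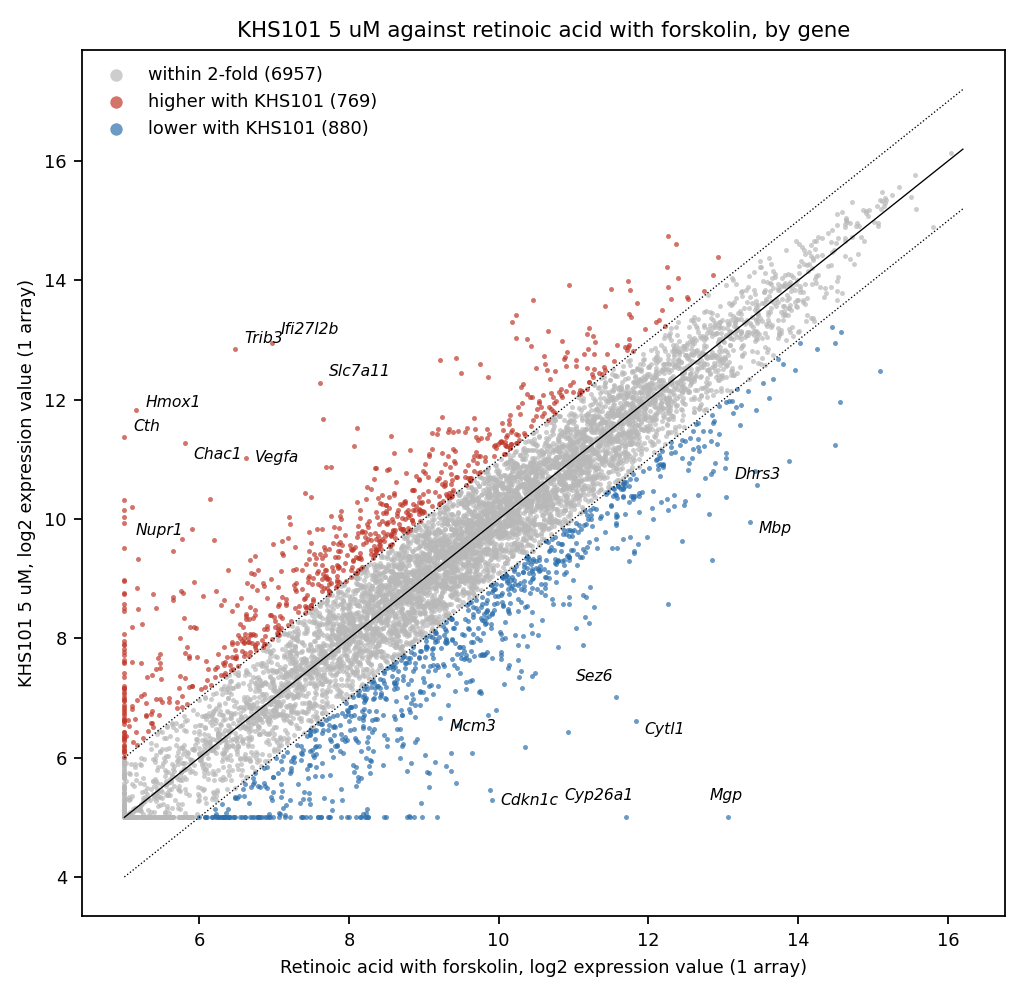
Each point is 1 of 8606 measured genes, with its log2 value on the retinoic acid with forskolin array (x axis) and on the KHS101 5 uM array (y axis); dotted lines mark 2-fold. Red points (769) are higher and blue points (880) lower with KHS101, and points on the left or bottom edge lie at the floor of 5 on 1 array.

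Of the genes of the retinoic acid response, Cyp26a1 and Mgp differed most. Cyp26a1, which hydroxylates retinoic acid for removal and is induced by it through its receptors, read 5.00, 5.00, 11.70 and 5.00. It was at the floor on every array but that of retinoic acid with forskolin, where it was at least 104-fold above KHS101 5 uM. Its promoter is shown because it held the direct repeat of 2 copies of the half-site AGTTCA, 5 bases apart, searched on both strands in a window from 250 bases before to 50 after the gene start. This element was in 3 of 27457 promoters of the RefSeq table and in 1 of the 7300 measured genes that had a promoter there. The same repeat was also searched with other half-sites. With AGGTCA it was in 3 of 27457 promoters and 0 of 7300 measured genes, and with GGTTCA in 2 and 1. The stretch lies at chr1:244883695-244883781 on the plus strand of GRCr8, with the match in capitals, read here as the reverse complement, starting at position -92 from the gene start. A match describes letters and does not make a site.
Cyp26a1: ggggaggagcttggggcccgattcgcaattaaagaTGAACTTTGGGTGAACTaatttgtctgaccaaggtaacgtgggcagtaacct

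Of 9 measured genes of retinoid metabolism and carriage, 4 were lower with KHS101, 0 were higher, and the median difference was -0.38, beside -0.001 over all measured genes. Dhrs3, which turns retinal back into retinol, read 10.85, 10.68, 13.03 and 5.74 and was 4.51-fold lower. It was high on all 3 treated arrays and low in DMSO. Cyp26b1, the sister hydroxylase, read 8.17, 9.42, 11.03 and 11.29, 7.24-fold lower with KHS101, but its other probe set differed by only -0.03. Unlike Cyp26a1, it was as high in DMSO as with retinoic acid. Rdh14, a retinol dehydrogenase, was 2.24-fold lower. The cellular carrier Crabp2 was not above the floor on either array.

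Among 8 measured receptors and coregulators, 0 passed 2-fold in either direction (median -0.37). Rarb, a receptor gene that retinoic acid itself induces, came closest at 10.73, 10.84, 11.70 and 8.87, a difference of -0.97. All 3 treated arrays were above DMSO for Rarb. Nrip1, a corepressor, was next at -0.69. Of 10 measured genes known as retinoic acid targets, 3 were lower and 0 higher (median -0.50). Mgp, matrix Gla protein, an inhibitor of calcification, had the largest difference of all genes with values of 5.00, 5.00, 13.06 and 5.13, at least 267-fold lower. The other called targets were Plat, tissue plasminogen activator (9.49, 9.75, 10.69 and 8.34; 2.30-fold lower), and the homeobox gene Meis1 (7.15, 7.45, 8.20 and 7.83; 2.07-fold lower). Plat was above DMSO on every treated array, while Meis1 was below DMSO with KHS101.

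Of 34 targets of cyclic AMP and CREB on the array, 16 were measured. Of these, 2 were lower (12.5%), 1 was higher (6.25%) and the median was -0.35. These shares were near the 10.2% and 8.94% of all measured genes. The lower count was 1 with the median of a gene's probe sets, with a floor of 6 or with centred arrays. Nr4a2, an orphan nuclear receptor, read 5.00, 5.00, 6.77 and 6.99, at least 3.41-fold lower, and Pde4b, a phosphodiesterase that breaks down cyclic AMP, read 10.14, 10.37, 11.15 and 10.44, 2.02-fold lower. Nr4a2 was as high in DMSO as with retinoic acid and forskolin. Ier2, an immediate early gene, was 2.83-fold higher, and Fos, the best known of this class, read 10.72, 10.46, 10.00 and 9.19, within 2-fold.

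Genes of the ATF4 response had the highest median of the lists. The lists and their members were chosen with earlier results of these data known, so this rank is a description only. ATF4 is the transcription factor made when kinases that sense amino acid shortage, misfolded protein or mitochondrial faults slow translation through eIF2. Of 19 measured regulators and markers, 17 were higher, 0 lower, and the median difference was 3.21. Trib3, a pseudokinase that feeds back on ATF4, read 12.84, 11.84, 6.48 and 5.75, 82.1-fold higher, and its other probe sets gave 6.41 and 7.31. Chac1, which degrades glutathione, read 11.27, 10.71, 5.81 and 6.78, 44.1-fold higher. Both KHS101 arrays were far above the control arrays, those of retinoic acid with forskolin and of DMSO, for both genes.

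Atf4 itself read 13.99, 13.77, 11.73 and 12.04, 4.80-fold higher with KHS101. Ddit3, the CHOP factor, read 13.68, 12.59, 10.46 and 10.08, 9.28-fold higher. Atf3, a factor induced by many stresses, read 9.51, 8.30, 5.00 and 5.00, at least 22.8-fold higher. For these genes KHS101 5 uM was highest, 1.7 uM somewhat below, and the control arrays lay close together.

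The chromatin protein Nupr1 read 10.03, 9.07, 5.00 and 5.00, at least 32.6-fold higher. Klf4, a zinc finger factor, read 10.15, 8.58, 5.00 and 5.00, at least 35.4-fold higher. For Nupr1, Klf4 and Atf3, both control arrays were at the floor. Cebpb (10.9-fold) and Atf5 (10.9-fold), partners of ATF4 and CHOP, Ppp1r15a (15.2-fold), which restores translation by dephosphorylating eIF2, and Eif4ebp1 (9.66-fold), a brake on cap-dependent translation, were also higher. The secreted factor Gdf15 was above the floor at KHS101 5 uM alone, at 7.21. The members within 2-fold were the kinase Eif2ak3 (-0.24), the sensor of the endoplasmic reticulum, and Vldlr (0.81).

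Promoters of strongly higher genes are printed to show the ATF4 element, the letters TGATGNAA on either strand, in capitals. All stretches are RefSeq sequence of GRCr8 on the strand of the gene. Trib3 lies at chr3:161275512-161275589 (minus), Chac1 at chr3:126795929-126796006 (plus), Nupr1 at chr1:190645914-190645991 (minus), Pck2 at chr15:32997603-32997656 (plus), Slc1a4 at chr14:98761755-98761812 (minus) and Cars1 at chr1:208225320-208225387 (minus). The element was in 3.82% of all promoters of the table, in 1.81% of measured genes, in 30 of 640 higher genes (4.69%) and 12 of 709 lower genes (1.69%). Among genes higher by 4-fold or more, 15 of 130 (11.5%) held it, and among those lower by as much 1 of 150 (0.667%).
Trib3: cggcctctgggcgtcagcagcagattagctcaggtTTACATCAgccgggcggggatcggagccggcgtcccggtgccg
Chac1: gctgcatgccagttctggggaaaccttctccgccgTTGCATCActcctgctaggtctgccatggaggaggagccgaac
Nupr1: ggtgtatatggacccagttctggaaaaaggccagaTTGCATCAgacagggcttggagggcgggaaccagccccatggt
Pck2: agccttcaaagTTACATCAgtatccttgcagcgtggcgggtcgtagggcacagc
Slc1a4: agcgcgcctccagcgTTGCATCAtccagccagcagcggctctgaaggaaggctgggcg
Cars1: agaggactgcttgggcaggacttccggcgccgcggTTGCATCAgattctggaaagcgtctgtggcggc

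Cytosolic aminoacyl-tRNA synthetases, which charge tRNAs with amino acids, were higher as a family. All 19 were measured, 15 passed 2-fold upwards, 0 downwards, and the median was 1.66; all 19 differences were above 0. Eprs1, for glutamate and proline, read 14.74, 14.53, 12.26 and 12.35, 5.58-fold higher, and its other probe sets also passed 2-fold. Cars1, for cysteine, read 11.52, 11.20, 9.34 and 10.11, 4.52-fold higher. Eprs1 was nearly equal on the control arrays, whereas for Cars1 retinoic acid with forskolin lay below DMSO. Nars1 (4.27-fold), Wars1 (4.10-fold) and Vars1 (4.04-fold) followed, and the smallest difference was that of the glutamine enzyme Qars1 at 0.12. The ATF4 element was in the promoter window of 7 of 17 synthetase genes (41.2%).

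Amino acid transporters had 8 higher and 1 lower of 13 measured (median 1.98). Slc7a11, the cystine importer that feeds glutathione synthesis, read 12.28, 11.88, 7.61 and 7.40, 25.5-fold higher. Slc1a5 and Slc1a4, exchangers of neutral amino acids, were 8.12-fold and 7.12-fold higher, and the glycine transporter Slc6a9 was 5.01-fold higher. Slc38a1, a glutamine carrier, was 4.49-fold higher, but its other probe set gave 0.47. The exception was another glutamine carrier, Slc38a3, at 6.47, 6.74, 7.48 and 7.61, 2.02-fold lower.

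Enzymes that make serine, asparagine, proline and cysteine and that carry folate carbon in mitochondria had 11 higher and 0 lower of 17 measured (median 1.41). Cth, which makes cysteine from cystathionine, read 11.37, 10.70, 5.00 and 5.00, at least 82.8-fold higher. Pck2, the mitochondrial form of phosphoenolpyruvate carboxykinase, read 10.33, 10.27, 6.15 and 7.37, 18.1-fold higher, and its other probe set gave 2.75. Cth was at the floor on both control arrays; Pck2 was above the floor on all 4. Asns, asparagine synthetase, read 13.92, 13.83, 10.94 and 11.79, 7.86-fold higher. Aldh18a1, the first enzyme of proline synthesis, was 6.22-fold higher, and Mthfd2 and Shmt2 of the mitochondrial folate pathway were 5.76-fold and 5.53-fold higher. For Asns, Shmt2 and Mthfd2 the retinoic acid array was also below DMSO, so the difference of KHS101 from retinoic acid was wider than that from DMSO.

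Folding machinery of the endoplasmic reticulum was nearly level by contrast. Of 23 measured genes, 2 were higher, 0 lower and the median was 0.08. Hspa5 (BiP), the central chaperone there, read 14.25, 14.03, 14.12 and 13.84, a difference of 0.13. The 2 higher genes serve the removal of misfolded protein: Herpud1, also an ATF4 target, at 12.69, 12.11, 10.87 and 10.80 (3.51-fold), and Edem1 (2.11-fold). Among 19 measured mitochondrial chaperones and proteases 5 were higher and 0 lower (median 0.60). Hspa9 (mortalin), which pulls proteins into the matrix, read 13.57, 13.20, 11.42 and 11.99, 4.44-fold higher. Lonp1, the matrix protease, read 11.46, 11.10, 9.33 and 9.72, 4.38-fold higher. The protease Clpp (2.80-fold), Bcs1l (2.43-fold) and Grpel2 (2.20-fold) were the others. Hspd1, the chaperonin HSP60 and a reported KHS101 target in other cells, read 13.45, 13.56, 12.85 and 13.38, within 2-fold at 0.60.

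Antioxidant genes of the NRF2 pathway, which senses electrophiles through KEAP1, had 10 higher and 1 lower of 24 measured (median 0.71). Hmox1, heme oxygenase 1, had the largest higher value measured on both arrays, at 11.83, 9.46, 5.16 and 6.39, 102-fold. Nqo1, a quinone reductase, read 9.67, 8.57, 5.77 and 5.00, 14.9-fold higher. Srxn1, sulfiredoxin, read 10.32, 8.32, 5.00 and 5.05, at least 39.9-fold higher, and its other probe set gave 4.25. These genes differed by 1 log2 unit or more between the KHS101 concentrations.

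The factor itself, Nfe2l2, was 4.74-fold higher, and the aldose reductase Akr1b8 at least 13.6-fold. Of the 2 subunits of the enzyme that starts glutathione synthesis, Gclc was 3.14-fold higher and Gclm differed by -0.20. Gsta4, a glutathione transferase, was the lower member (at least 2.79-fold), above the floor on the retinoic acid with forskolin array only, at 6.48. Of 17 measured cytosolic heat shock genes, 5 were higher and 1 lower (median 0.50). Hspa1a, the inducible HSP70, read 8.69, 6.02, 5.64 and 5.67, 8.27-fold higher. It was high at 5 uM and near the controls at 1.7 uM. Its cochaperone Bag3 was 8.10-fold, Hspa4l 3.16-fold, Hspa4 2.69-fold and the factor Hsf1 2.30-fold higher, while the small heat shock protein Cryab was 3.02-fold lower.

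**Figure D2:**
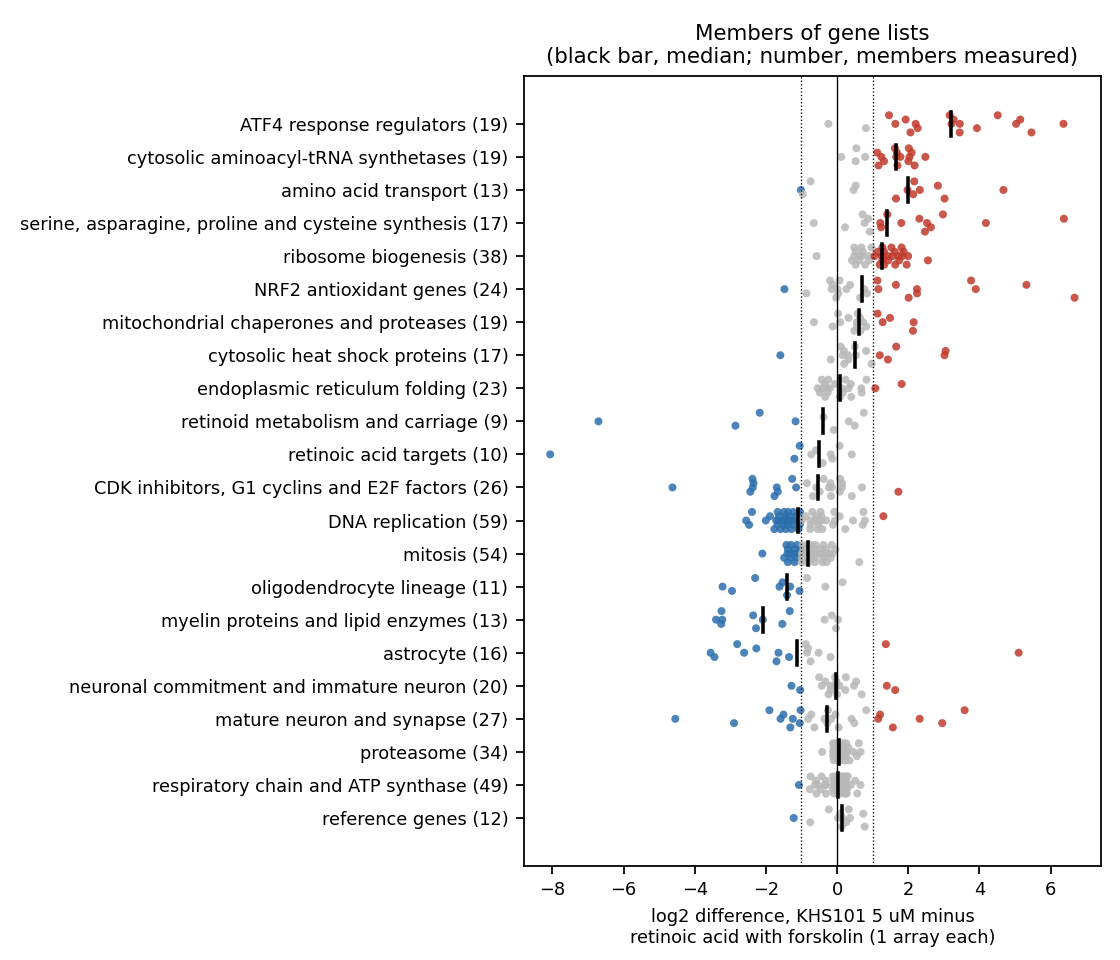
Each point is a measured member of a gene list, placed by its log2 difference between KHS101 5 uM and retinoic acid with forskolin (1 array each); red and blue points passed 2-fold, black bars are list medians and the number is that of measured members. The ATF4 regulators have a median of 3.21, DNA replication -1.09 and myelin genes -2.09, while the proteasome (0.06) and the respiratory chain (0.03) lie at 0.

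Genes of the p53 response and the GADD45 family had 7 higher and 1 lower of 15 measured (median 0.91). The shares were 46.7% and 6.67%, beside 8.94% and 10.2% of all measured genes. The higher members include the GADD45 genes Gadd45a, Gadd45b and Gadd45g. Gadd45b, a stress sensor, read 9.93, 8.32, 5.00 and 5.00, at least 30.5-fold higher. Cdkn1a, the cell cycle inhibitor p21, read 10.87, 10.33, 7.69 and 7.33, 9.07-fold higher, and its other probe set gave 3.20. Sesn2, also on the ATF4 list, was 8.96-fold and the proapoptotic Bbc3 4.94-fold higher. Its relative Sesn1 went the other way at 6.80, 8.18, 9.96 and 8.11, 8.93-fold lower, and its other probe set gave -1.84. The exonuclease gene Aen was at least 11.0-fold higher, but its other probe set gave 0.66. Sesn1 and Sesn2 thus differed in opposite directions on the same arrays. The other p53 targets measured were within 2-fold, in both directions. These were Mdm2 (0.91), Plk2 (0.29), Ccng1 (0.18), Ei24 (-0.44), Zmat3 (-0.56), Phlda3 (-0.63) and Xpc (-0.71).

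Cell cycle control differed between the inhibitors. Cdkn1c, the inhibitor p57, read 5.28, 6.37, 9.91 and 7.82, 24.7-fold lower with KHS101. So p21 was high with KHS101 and p57 high with retinoic acid and forskolin, each against DMSO too. Of 26 measured CDK inhibitors, G1 cyclins and E2F factors, 10 were lower and 1 higher (median -0.54). E2f1, which switches on S phase genes, read 5.32, 6.97, 7.67 and 8.56, 5.09-fold lower. E2f7 (5.42-fold), E2f8 (at least 5.20-fold) and the S phase cyclin Ccne2 (5.17-fold) were lower as well. Cyclin D1 (Ccnd1) differed by -0.17. The exception was Myc, a driver of growth, at 12.10, 11.73, 10.38 and 12.02, 3.30-fold higher; here KHS101 was level with DMSO and retinoic acid with forskolin stood apart.

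DNA replication genes were lower with KHS101 in 33 of 59 measured cases and higher in 1, with a median of -1.09. Mcm3, of the helicase that opens the double strand, read 6.67, 8.47, 9.22 and 10.38, 5.87-fold lower. Mcm5, its partner, read 8.05, 9.87, 10.52 and 11.32, 5.54-fold lower. Both followed the same order, with DMSO highest, then retinoic acid with forskolin, then KHS101 1.7 uM and 5 uM.

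All the helicase subunits Mcm2 to Mcm7 passed 2-fold, the others being Mcm6 (3.01-fold), Mcm2 (2.85-fold), Mcm4 (2.07-fold) and Mcm7 (2.06-fold). Tk1, thymidine kinase, read 8.73, 10.47, 11.13 and 11.96, 5.25-fold lower, with -2.13 and -1.11 at its other probe sets. Chaf1a, which deposits histones behind the fork, was 4.00-fold and the flap endonuclease Fen1 3.69-fold lower. Pcna, the sliding clamp, differed by -0.74. Orc2, of the origin recognition complex, was the higher member at 9.67, 9.25, 8.37 and 8.92 (2.46-fold). The list median against DMSO was -1.90 with KHS101 5 uM and -0.82 with retinoic acid and forskolin.

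Replication promoters are printed for Mcm3 and Mcm5 because 20 of 53 genes of this list (37.7%) held an E2F site, TTTCCCGC or TTTGGCGC on either strand, against 3.32% of measured genes and 1.53% of all promoters. The share among all lower genes was 5.36% and among higher genes 3.12%. The stretches are chr9:30733710-30733787 (minus strand) and chr19:13488770-13488847 (plus strand) of GRCr8 from RefSeq, with the TTTCCCGC match in capitals.
Mcm3: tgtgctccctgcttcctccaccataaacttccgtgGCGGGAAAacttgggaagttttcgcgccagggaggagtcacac
Mcm5: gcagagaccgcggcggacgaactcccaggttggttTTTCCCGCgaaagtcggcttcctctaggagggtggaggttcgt

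Mitosis genes had smaller differences of the same sign. Of 54 measured, 17 were lower and 0 higher (median -0.81), and 53 were below 0. Cenpu, a centromere protein, read 6.16, 7.62, 8.26 and 9.40, 4.28-fold lower. Aspm, which organises spindle poles, read 9.08, 9.76, 10.46 and 10.88, 2.61-fold lower. Spc24 (2.80-fold), a kinetochore subunit, the kinase Aurkb (2.68-fold) and Melk (2.63-fold) also passed. The proliferation marker Mki67 read 10.46, 10.49, 11.42 and 11.72 and topoisomerase Top2a 12.15, 12.69, 12.97 and 13.56, both within 2-fold. DMSO was highest in each of these examples.

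Many mitosis promoters carry a CHR element, the letters TTTGAA. It was found on either strand in 29 of 46 of these genes (63%), against 10.9% of measured genes, 10.9% of higher and 11.6% of lower genes, and 18.1% of all promoters. Stretches of Aspm at chr13:53625533-53625608 (plus strand) and of the kinetochore gene Spc25 at chr3:74396735-74396810 (minus strand), both GRCr8 from RefSeq, show it in capitals; Spc25 read 10.38, 11.07, 11.76 and 12.57.
Aspm: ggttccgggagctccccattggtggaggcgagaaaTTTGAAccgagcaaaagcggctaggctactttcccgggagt
Spc25: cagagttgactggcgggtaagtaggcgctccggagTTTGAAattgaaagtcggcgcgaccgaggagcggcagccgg

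Among 11 measured genes of the TACC family, ARNT and the hypoxia-inducible factors, 2 were lower and 0 higher (median -0.34). Tacc3, the reported target, read 9.83, 10.03, 10.45 and 11.28, a difference of -0.63, and Arnt read 6.61, 6.69, 6.95 and 6.75, a difference of -0.34. Tacc3 was highest in DMSO, like the mitosis genes. Its relative Tacc2 was 3.05-fold lower, and Epas1, hypoxia-inducible factor 2 alpha, read 7.36, 8.50, 10.44 and 9.01, 8.45-fold lower. Hif1a differed by -0.13.

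Ribosome biogenesis was the list with the most higher members by number, but not by share. Of 38 measured, 23 were higher (60.5%, beside 8.94% of all measured genes) and 0 lower (median 1.26), and 37 were above 0. The share of higher members was 89.5% for the ATF4 regulators and 78.9% for the synthetases. Shq1, an assembly factor of the RNA-modifying particles, read 8.34, 8.23, 5.79 and 7.82, 5.87-fold higher. Wdr75, of the small subunit processome, read 10.15, 9.34, 8.15 and 8.93, 3.99-fold higher. Polr1b, a subunit of RNA polymerase I, read 10.40, 10.07, 8.45 and 9.57, 3.88-fold higher. In all of these the retinoic acid with forskolin array was the lowest, below DMSO.

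Rrp9 (3.66-fold) and the nucleolar Gnl3 (3.56-fold; 12.72, 11.91, 10.88 and 11.84) were also higher, and nucleolin (Ncl) differed by 0.68. The list median was 0.34 for KHS101 5 uM against DMSO and -0.84 for retinoic acid with forskolin against DMSO; these comparisons share arrays. The E-box CACGTG, a site that MYC and related factors can bind, was in the promoter window of 11 of 34 genes of this list (32.4%). It was in 131 of 640 higher genes (20.5%), 7.33% of lower genes, 10.3% of measured genes and 6.65% of all promoters. Wdr75 at chr9:55395037-55395112 (plus strand) and Gnl3 at chr16:6219767-6219842 (minus strand), both GRCr8 from RefSeq, are shown with the E-box in capitals.
Wdr75: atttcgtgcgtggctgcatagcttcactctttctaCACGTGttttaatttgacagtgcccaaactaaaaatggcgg
Gnl3: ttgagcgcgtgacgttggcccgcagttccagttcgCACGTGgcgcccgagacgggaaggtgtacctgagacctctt

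**Figure D3:**
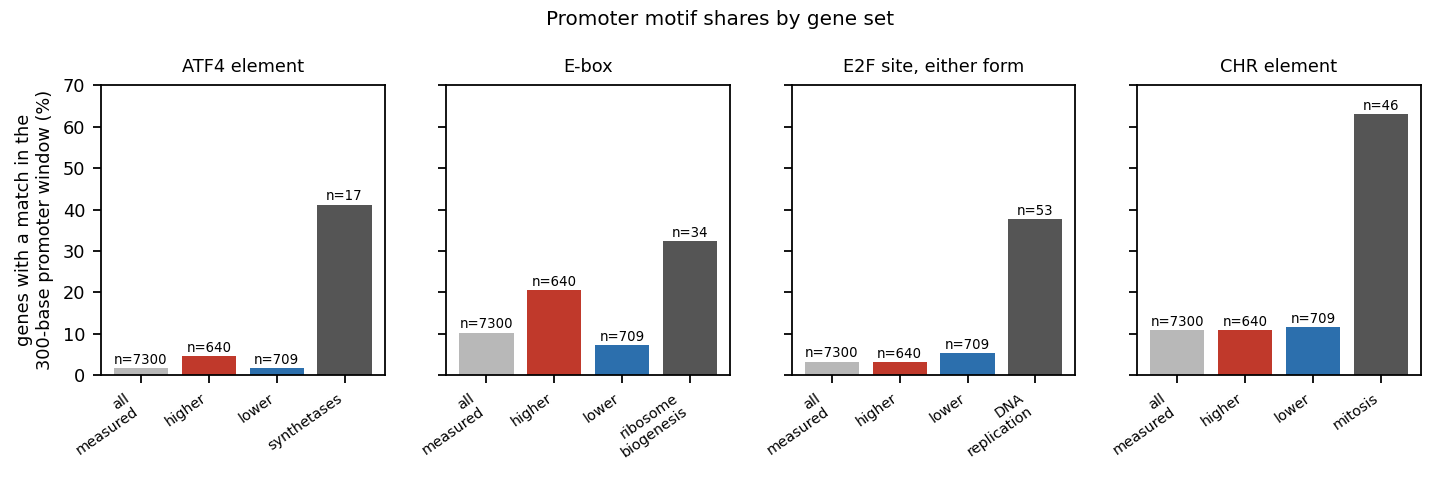
Bars give the percent of genes whose 300-base promoter window held each motif, for all measured genes with a promoter, genes higher or lower with KHS101 and 1 gene list per panel; n is the number of genes. The E-box was in 20.5% of higher and 7.33% of lower genes, while the CHR element was in nearly equal shares of both (10.9% and 11.6%) and in 63% of mitosis genes.

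The other motifs searched are given by their shares alone. The NRF2 antioxidant element TGACNNNGC was in 17.5% of higher, 13.8% of lower and 14.8% of measured genes, and in 12.2% of all promoters. Within the list of NRF2 antioxidant genes it was in 4 of 22 (18.2%), near the share of measured genes. The cyclic AMP response element TGACGTCA was in 4.22%, 2.4% and 3.67%, and in 1.91% of all promoters. The hypoxia core ACGTGC was in 13.9%, 6.77% and 8.68%, and in 5.84% of all promoters; its letters overlap those of an E-box followed by C. The heat shock element was in 0.625% of higher, 0.141% of lower and 0.425% of measured genes and 0.736% of all promoters. Both strands were searched in each case.

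Most called glial genes were lower with KHS101 than with retinoic acid and forskolin. Of 13 measured myelin proteins and lipid enzymes, 9 were lower with KHS101, 0 higher, and the median was -2.09. Mbp, myelin basic protein, read 9.96, 10.54, 13.36 and 12.07, 10.6-fold lower; its other probe sets gave -0.36 and -3.88. Enpp2 (autotaxin), made by maturing oligodendrocytes, read 11.24, 11.91, 14.49 and 12.92, 9.55-fold lower. Gal3st1, which sulfates myelin galactolipids, read 7.88, 9.21, 11.13 and 10.12, 9.49-fold lower. For these genes the retinoic acid array was above DMSO and both KHS101 arrays below it.

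Fa2h, which hydroxylates the fatty acids of myelin lipids, was 9.35-fold lower at 5.93, 6.52, 9.15 and 6.61, and Ugt8, which adds galactose to ceramide, 5.12-fold lower. Genes of the oligodendrocyte lineage had 8 lower and 0 higher of 11 measured (median -1.41). Zfp488, a factor of this lineage, read 8.25, 9.08, 11.20 and 10.13, 7.74-fold lower. Myrf, the master factor of myelination, was 4.93-fold lower. The lineage factors Olig2 (9.50, 10.25, 11.12 and 11.08; 3.07-fold) and Nkx2-2 (2.89-fold), and C1ql1 of the progenitors (at least 9.31-fold), were lower, and Olig2 and C1ql1 were level in DMSO and with retinoic acid. By the median of its probe sets, Olig2 differed by -0.81.

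Astrocyte genes had 8 lower and 2 higher of 16 measured (median -1.12). Slc15a2, a peptide transporter, read 5.51, 5.70, 9.06 and 5.18, 11.7-fold lower, and was near the floor on every array except that of retinoic acid with forskolin. Cp, ceruloplasmin, read 5.86, 6.53, 9.30 and 6.52, 10.9-fold lower, and its other probe set gave -1.80. Ndrg2 (8.35, 9.63, 11.16 and 9.87), the glycolytic enzyme Aldoc (6.10-fold; 10.81, 11.95, 13.42 and 12.28) and the receptor Fgfr3 (4.82-fold) were lower. The defining markers Gfap and Aqp4 were not above the floor on either array, and S100b read 13.33, 13.44, 14.21 and 13.15, within 2-fold. The higher members were Id3 (2.59-fold) and Cd44, a hyaluronan receptor also found on other cells, at 10.20, 9.40, 5.10 and 6.14, 34.3-fold.

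**Figure D4:**
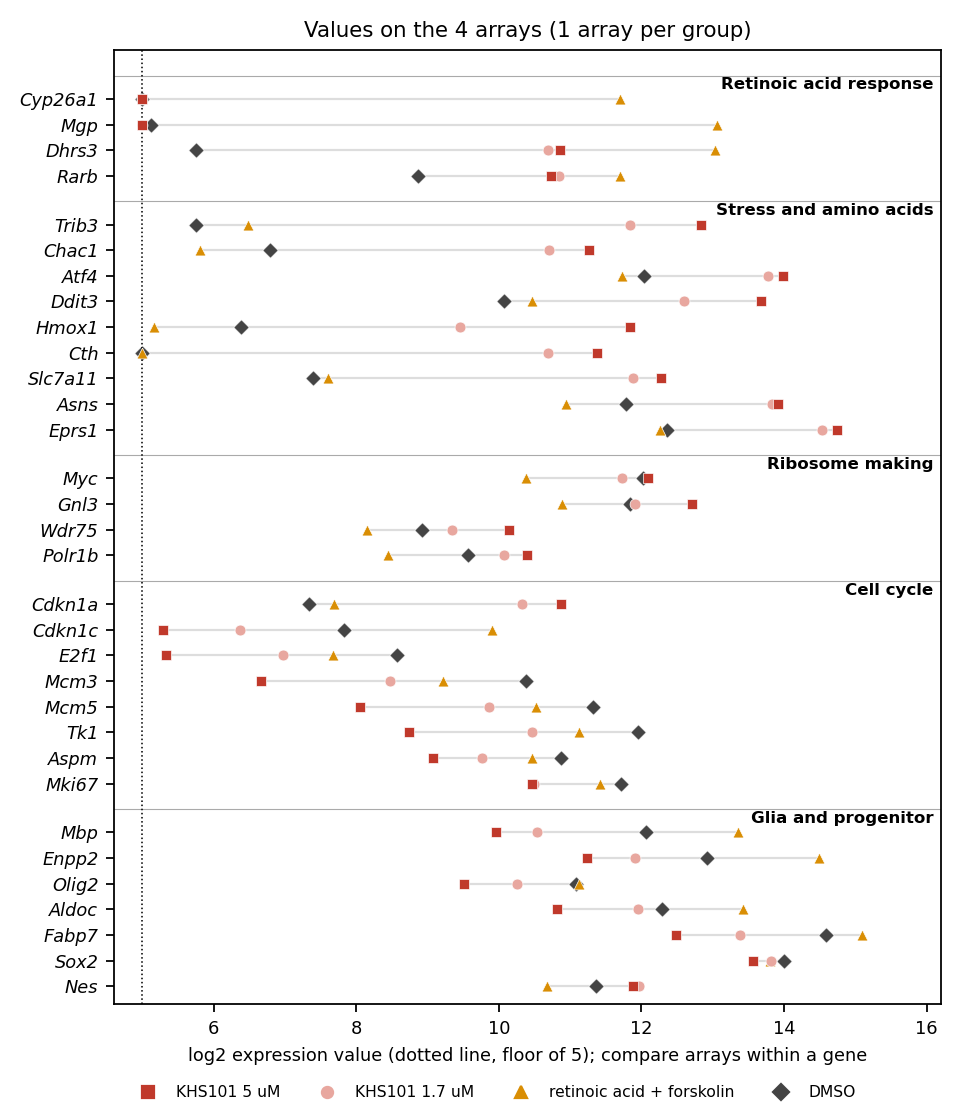
Log2 values of 32 genes on the 4 arrays, 1 array per group, with the floor of 5 as a dotted line; levels are to be compared within a gene only. Trib3, Chac1 and Cth are high on both KHS101 arrays, Cyp26a1 and Mgp on the retinoic acid with forskolin array alone, and the replication genes Mcm3, Mcm5 and Tk1 run from DMSO down to KHS101 5 uM.

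Progenitor and radial glia genes were mixed, with 3 higher and 3 lower of 12 measured (median -0.51). Sox2, which holds progenitor identity, read 13.57, 13.82, 13.81 and 14.01, a difference of -0.24. The filament gene Nes read 11.89, 11.97, 10.67 and 11.36, 2.32-fold higher, and Vim differed by 0.72. Fabp7, a fatty acid carrier of radial glia, read 12.48, 13.39, 15.09 and 14.59, 6.13-fold lower. Sox3 was 3.95-fold and Lhx2 2.01-fold lower, while the matrix protein Tnc (at least 4.03-fold) and Hopx (at least 2.57-fold) were higher. The progenitor marker Sox2 was thus well above the floor on all 4 arrays, and Pax6 was above the floor on neither of the arrays compared.

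Of 40 genes of neuronal commitment and immature neurons on the array, 20 were measured. Of these, 2 were higher (10%), 2 lower (10%) and the median was -0.03. These shares were near the 8.94% and 10.2% of all measured genes. The lower count was 0 with the median of a gene's probe sets. Tubb3, a tubulin of young neurons, read 9.48, 9.59, 9.98 and 8.85, and Map2, a dendrite protein, 12.60, 12.67, 12.79 and 12.46, both within 2-fold. All 3 treated arrays were above DMSO for Tubb3. The migration protein Dcx and the factor Neurod1 were above the floor on neither array. Dclk1, a relative of Dcx, read 10.37, 10.46, 11.65 and 8.17, 2.43-fold lower. Ncam1 was 2.05-fold lower, with -0.39 at its other probe set, and Sox11 (2.63-fold) and Elavl2 (at least 3.10-fold) were higher. The other probe sets of Dclk1 and Elavl2 were not above the floor on either array compared.

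Mature neuron and synapse genes had 6 higher and 9 lower of 27 measured (median -0.27); the lower count was 5 with the median of a gene's probe sets. Sez6, a dendrite protein, read 7.02, 8.92, 11.56 and 10.15, 23.4-fold lower. Synpo, of dendritic spines, read 8.11, 8.42, 10.01 and 5.00, 3.74-fold lower than with retinoic acid though above DMSO. The adhesion protein Lrrc4 (at least 7.44-fold), Syt11 (3.01-fold) and the sodium channel Scn3a (2.84-fold) were lower. Ncs1, a calcium sensor, read 8.58, 8.11, 5.00 and 7.79, higher by at least 3.58 on the log2 scale, and Gad1, which makes the transmitter GABA, read 7.95, 7.04, 5.00 and 5.00, at least 7.75-fold higher. By the probe set used, Gad1 was above the floor on the KHS101 arrays alone. Also higher were Camk2b (9.78, 9.98, 7.46 and 8.61, a difference of 2.32) and Eno2 (10.25, 10.23, 8.68 and 8.45, a difference of 1.57). Both were above the floor on every array. The remaining higher members were Camk2n1 (at least 1.21) and Nefm (at least 1.15). The other probe sets of Synpo, Lrrc4, Ncs1 and Gad1 were not above the floor on either array compared.

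Receptors and channels of neural cells followed. Of 8 measured sorting and neurotrophin receptors, 3 were lower and 0 higher (median -0.63). Gfra1 and Gfra2, receptors of the GDNF family, were 4.23-fold and 3.23-fold lower, and Sorcs1 was at least 3.44-fold lower. Of 10 measured ion channels and transporters, 3 were lower and 0 higher (median -0.43). Kcnmb4, a subunit of the large-conductance potassium channel, read 5.78, 6.97, 9.36 and 9.09, 11.9-fold lower. The others were P2rx4, an ATP-gated channel (4.70-fold), and Kcna2, a potassium channel (3.13-fold).

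In the Notch pathway, which keeps progenitors from differentiating, 2 of 11 measured genes were higher and 2 lower (median -0.16). The ligand Jag1 read 10.49, 10.56, 8.85 and 10.25, 3.11-fold higher, and the receptor Notch1 read 8.84, 9.45, 10.44 and 10.29, 3.04-fold lower. Of the target genes, Hes1 was 2.04-fold higher and Hey1 3.15-fold lower. The target genes thus differed in both directions.

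In BMP and TGF-beta signalling 8 of 24 were higher (5 with the median of a gene's probe sets) and 4 lower (median 0.05). The ligand Bmp4 read 5.00, 5.01, 8.15 and 7.53, at least 8.85-fold lower, and Bmp2 was 3.28-fold higher. The target genes Id1 (6.78, 6.14, 5.00 and 5.84; at least 3.43-fold) and Id3 (10.16, 10.30, 8.79 and 10.58) were higher than with retinoic acid, and Id3 was close to DMSO. Pmepa1, an inhibitor that TGF-beta induces, read 7.65, 7.66, 10.02 and 6.76, 5.20-fold lower. The ligand Tgfb3 (2.73-fold) and the receptor Acvr1 (2.00-fold) were the other lower genes. The corepressors Tgif1 (9.95-fold) and Tgif2 (4.29-fold) and the transducer Smad9 (3.07-fold) were higher.

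Wnt signalling had 6 lower and 2 higher of 12 measured (median -0.95). The secreted inhibitor Wif1 was 5.03-fold lower, the feedback inhibitor Nkd1 3.42-fold, the receptors Fzd1 and Fzd8 2.42-fold and 2.38-fold, and Tcf7l2 2.88-fold, with -1.30 and -0.22 at its other probe sets. Nkd2, the relative of Nkd1, read 9.08, 8.84, 6.73 and 7.03, 5.11-fold higher, and the factor Lef1 2.33-fold. Nkd1 read 7.07, 7.76, 8.84 and 7.98, so the pair ran in opposite directions; the other probe sets of Nkd1 gave -0.98 and -1.37. Of 16 measured genes of FGF signalling and the ERK response, 3 were higher and 2 lower (median -0.01). These were Ier3 (3.14-fold), Myc and Etv4 (2.06-fold) on the higher side, and Fgfr3 and the ERK-responsive factor Etv1 (2.15-fold) on the lower side.

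Of 30 measured matrix and integrin genes, 4 were higher and 9 lower (median -0.20). Besides Mgp, the basement membrane protein Nid2 (5.00, 5.69, 8.86 and 8.48; at least 14.5-fold) and the collagen Col9a1 (5.02, 6.83, 8.80 and 8.19; 13.8-fold) were lower. Both were also high in DMSO, unlike Mgp. The integrins Itga8 and Itgav were 4.23-fold and 3.16-fold lower, and the laminin Lama5 at least 4.31-fold and the syndecan Sdc1 2.20-fold higher, beside Tnc and Cd44. The other probe sets of Itga8 and Lama5 were not above the floor on either array compared. Among 15 measured chemokines and interferon-inducible genes, 5 were lower and 3 higher (median -0.14). Ccl2, which attracts monocytes, read 10.97, 11.09, 13.88 and 8.41, 7.51-fold lower though above DMSO on all treated arrays, and Ccl7 read 5.00, 5.00, 9.18 and 5.00, at least 18.1-fold lower. Mx2 (at least 9.52-fold), the chemokine scavenger Ackr3 (at least 9.41-fold) and Ifi27 (2.36-fold) were lower, while Ifit2 was 2.87-fold and the chemokine Cx3cl1 2.66-fold higher, and Ifi27l2b, of the interferon-inducible Ifi27 family, read 12.96, 12.30, 6.97 and 6.77, 63.6-fold higher. Ifi27 and Ifi27l2b ran in opposite directions.

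Genes of hypoxia and glycolysis had 6 higher and 4 lower of 29 measured (median 0.33). Vegfa, the vessel growth factor that both HIF and ATF4 can induce, read 11.02, 10.13, 6.62 and 7.40, 21.2-fold higher, and its other probe set gave 3.76. Pfkfb3, which speeds glycolysis, was 5.51-fold, glycogen synthase Gys1 3.64-fold, Pfkp 3.19-fold, Ndrg1 2.74-fold and the peptide hormone Adm 2.41-fold higher. Ak4 and Bnip3l, also hypoxia-inducible, were 2.94-fold and 2.42-fold lower, and Mxi1 and the muscle phosphofructokinase Pfkm 2.27-fold and 2.18-fold. Of 28 measured genes of sterol and fatty acid synthesis and export, 0 were higher and 2 lower (median 0.16), Tm7sf2 (3.30-fold) and the exporter Abcg1 (at least 2.52-fold). In the respiratory chain 1 of 49 was lower (Ndufa2, 2.10-fold) and 0 higher (median 0.03), in autophagy and the lysosome 1 of 27 was lower (Wipi1, 2.23-fold) and 0 higher (median -0.08), and among 34 proteasome genes 0 passed 2-fold (median 0.06), the widest being Psme4 (0.66) and Psmc6 (0.61).

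**Figure D5:**
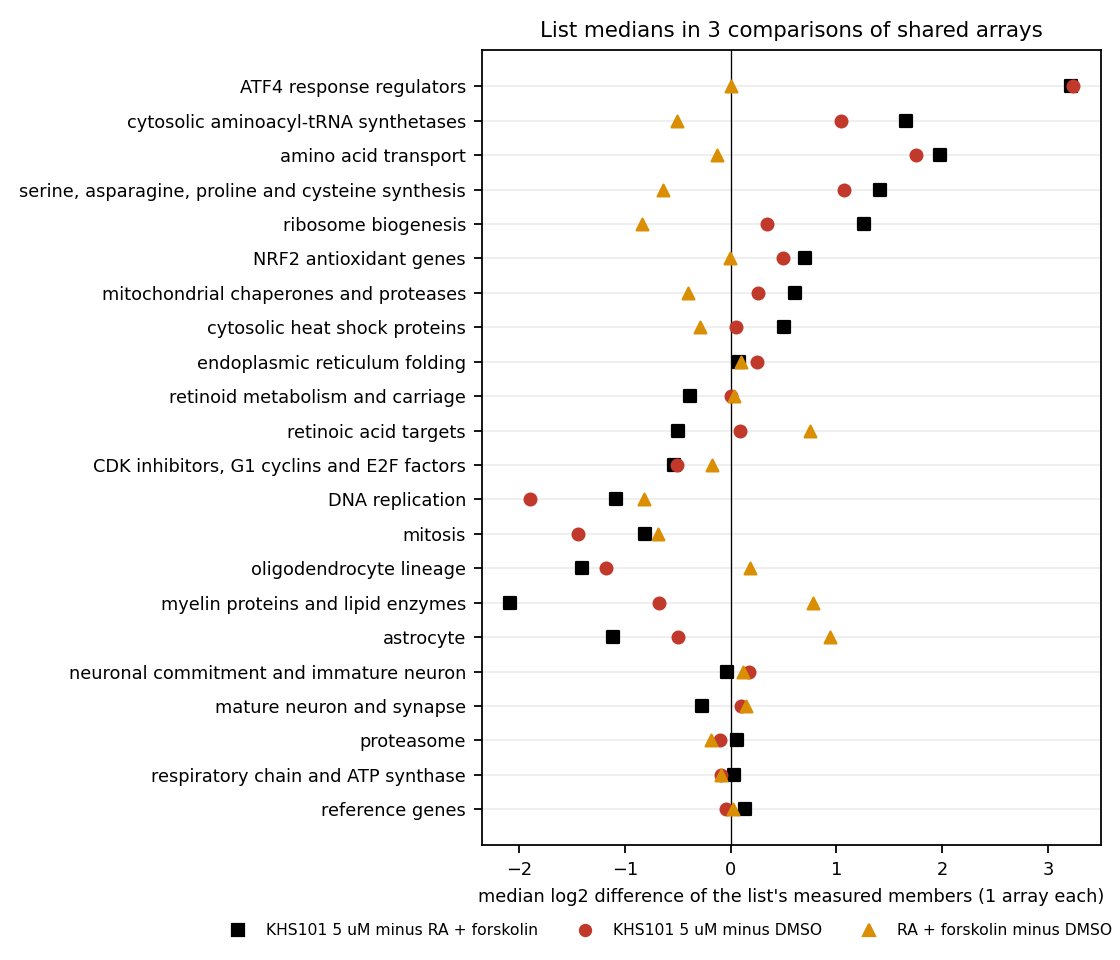
Median log2 difference of the measured members of each gene list in 3 comparisons: KHS101 5 uM minus retinoic acid with forskolin (black squares), KHS101 5 uM minus DMSO (red circles) and retinoic acid with forskolin minus DMSO (orange triangles). The comparisons share arrays; for ribosome biogenesis the medians are 1.26, 0.34 and -0.84, for myelin genes -2.09, -0.68 and 0.77, and for ATF4 regulators 3.21, 3.23 and 0.00.

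The list medians took different patterns across the arrays. For the ATF4 regulators, KHS101 stood 3.21 above retinoic acid and 3.23 above DMSO, with retinoic acid with forskolin level with DMSO. For ribosome biogenesis most of the distance lay on the other array, at -0.84 from DMSO with retinoic acid and 0.34 with KHS101. The synthetases combined both, with 1.04 for KHS101 and -0.51 for retinoic acid with forskolin against DMSO. Myelin and astrocyte genes also parted in opposite directions from DMSO, with -0.68 and -0.50 for KHS101 and 0.77 and 0.94 for retinoic acid with forskolin. For the oligodendrocyte lineage most of the distance lay with KHS101, at -1.18 from DMSO, against 0.19 for retinoic acid with forskolin. Replication and mitosis genes were below DMSO with both treatments, with medians of -1.90 and -1.45 for KHS101 and -0.82 and -0.68 for retinoic acid with forskolin.

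Several of the widest differences lay outside these groups. On the higher side, Dmkn, a secreted epithelial protein, read 9.34, 8.34, 5.18 and 5.00 (17.8-fold), the amino acid transporter Slc6a15 11.67, 10.89, 7.65 and 9.41 (16.3-fold), and Cpeb1, which regulates the poly(A) tails of mRNAs, 8.85, 8.30, 5.17 and 5.00 (12.8-fold). Nnmt, nicotinamide methyltransferase, was at least 15.7-fold, Mcrip2 at least 15.5-fold and LOC100911534 14.2-fold higher. Dmkn, Cpeb1 and Nnmt were at or near the floor on both control arrays.

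On the lower side, Cytl1 read 6.62, 8.41, 11.83 and 9.42 (37.1-fold), Armh4 6.44, 7.81, 10.92 and 10.55 (22.4-fold) and Cdhr2, a protocadherin-like protein, 5.46, 5.74, 9.89 and 6.84 (21.5-fold). Adhfe1, a hydroxyacid dehydrogenase, was 18.1-fold lower, with -1.46 on the log2 scale at its other probe set, Itpkb, an inositol phosphate kinase, 14.5-fold, the myosin light chain Myl9 13.2-fold, the matrix protein Smoc1 12.8-fold, Cyp2j3 11.9-fold and the lipocalin Apod 11.6-fold. With 1 array at the floor, Shroom2 was at least 15.8-fold, Mia at least 14.0-fold and Txnip, a thioredoxin inhibitor that follows glucose, at least 13.7-fold lower. Armh4 and Apod were nearly as high in DMSO as with retinoic acid, whereas Cdhr2 was not.

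KHS101 at 1.7 uM, set against the same retinoic acid array, gave 509 higher (5.93%) and 463 lower genes (5.39%) of 8588 measured. Because that array is shared, the counts of the concentrations are given side by side only. At 5 uM and 1.7 uM the ATF4 regulators had 17 and 16 members higher, the synthetases 15 and 13, amino acid synthesis 11 and 11, and ribosome biogenesis 23 and 14. On the lower side myelin genes had 9 and 9 and astrocyte genes 8 and 7. Replication genes had 33 and 0, the CDK inhibitor, cyclin and E2F list 10 and 2, mitosis 17 and 3, and the oligodendrocyte lineage 8 and 3. The replication median was -1.09 at 5 uM and -0.32 at 1.7 uM against retinoic acid with forskolin.

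Markers of cells that a hippocampal preparation could also hold were mostly at the floor. Of 18 microglia and macrophage genes on the array, 0 were above the floor with KHS101 5 uM and 1 with retinoic acid and forskolin: P2ry12, a purine receptor, at 5.00, 5.00, 8.50 and 7.66, at least 11.3-fold lower, while Aif1, Cx3cr1 and Csf1r were at the floor on both. Of 16 endothelial and pericyte genes 1 and 2 were above it, and of the 3 measured, Cd93 was higher (at least 13.3-fold) and Kdr lower (at least 2.91-fold; median -0.15), with Pecam1 and Cldn5 at the floor. Of 18 fibroblast and meningeal genes 4 and 5 were above it; of the 5 measured, Igfbp4 was 4.05-fold higher, and Mgp and Pdgfra (2.49-fold) lower (median -0.91), with Col1a1, Col3a1 and Dcn at the floor. Pdgfra is also a member of the oligodendrocyte lineage list. The 9 choroid plexus genes were at the floor on every array. Of the neural lists, 12 and 10 of 17 progenitor, 18 and 19 of 40 immature neuron, 15 and 16 of 30 astrocyte, 10 and 11 of 13 oligodendrocyte and 10 and 13 of 18 myelin genes were above the floor. The part of other cell types in the differences was not tested.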

How the data were processed

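RNA from cells of 4 groups was measured on 1 Affymetrix array each. Values were deposited by the authors as log2 expression values for 31099 probe sets. Per the submitters' processing notes, GCRMA (no version) and R 2.6.2 were used; no genome build is named there. The columns have nearly equal distributions, so a shift of all genes at once could not be seen.

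Of 31042 non-control probe sets, 20826 had 1 gene symbol in the platform annotation, 436 several and 9780 none; 20758 matched RefSeq. Each gene was represented by its probe set of highest mean across the 4 arrays. Values under 5 were raised to 5. A difference of at least 1 (2-fold) was called, without a test. The calling code was run on simulated data with shifts well past the threshold and little noise. Such a run checks the code and says nothing of the noise between cultures.

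Named genes were the 15 widest differences each way, the 8 widest bounds, up to 5 called members of each of 42 lists along its median and up to 2 against it, and a fixed set; other list members were named after their values were seen. Members and lists were chosen with earlier results of these data known. Alternatives changed the floor, probe set, scaling, threshold and concentration. Promoters (RefSeq, GRCr8) matched 7300 of 8606 genes. Python 3.11.15, numpy 2.4.6, pandas 2.3.3 and matplotlib 3.10.9 were used. The number of arrays limits the precision.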

Additional observations from a re-analysis of the deposited data

Results flagged for a closer look

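Probe sets without a single gene name entered no comparison above, yet many differed between KHS101 5 uM and retinoic acid with forskolin. Of 2818 such probe sets above the floor on at least 1 array, 203 were higher (7.2%) and 370 lower (13.1%) by 2-fold or more. The widest differences were 5.22 and -5.65 on the log2 scale. Their genes were not analysed here, and no array stands as a replicate. The control probe set for 5S ribosomal RNA, which entered no comparison, read 7.89 with KHS101 5 uM, above its deposited values of 2.81 in DMSO and 2.54 with retinoic acid and forskolin.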

How the results depend on the processing

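No paired analysis was possible because every group is a single array, and no replicate could be left out. The counts of 769 higher and 880 lower genes became 1611 and 1722 at a 1.5-fold threshold, 304 and 360 at 3-fold, and 509 and 463 with KHS101 1.7 uM in place of 5 uM; under the other settings they lay within 703 to 809 and 790 to 943. Of the counts of called members per list, 235 of 246 stayed within 1.5 times, and of the list medians 240 of 246 kept their sign and their side of 2-fold. With the median of a gene's probe sets, lower members numbered 1 for cyclic AMP targets, 0 for neuronal commitment, 5 for mature neurons, 0 for autophagy and 0 for endothelial genes, and higher members 5 for BMP and TGF-beta. Cyclic AMP targets also had 1 lower member with a floor of 6 or with centred arrays; endothelial genes had 2 with a floor of 4 or none and 0 with a floor of 6. The medians that moved were those of endothelial genes (3 measured; from -0.15 to -1.04 with a floor of 4 or none and 1.10 with a floor of 6), Wnt (-1.05 with a floor of 6), FGF (0.01 with centred arrays) and endoplasmic reticulum folding (-0.01 with the median of probe sets). Of 199 named genes with a value under all 6 settings, 179 kept their call under each; 6 others had no value with the median of probe sets, and 4 of these kept it under the remaining settings. None of the 205 changed sign past the threshold. Those that lost it include Olig2 (-0.81), Slc38a1 (0.47), Ncam1 (-0.39) and Tcf7l2 (-0.22), each with the median of probe sets. The cause was not tested. Signal over background limits genes near the floor.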

Other observations

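Gene families were also picked by their symbols after the values were seen. Their counts are to be read beside all measured genes, of which 8.94% were higher and 10.2% lower. Of 140 measured solute carriers (Slc), 25 were higher with KHS101 5 uM than with retinoic acid and forskolin and 16 lower (median 0.09), and 17 of the higher and 14 of the lower ones stand on none of the lists above. Of 12 tRNA methyltransferases (Trmt), which modify tRNA bases, 5 were higher and 0 lower (median 0.59): Trmt1, Trmt10a, Trmt10c, Trmt6 and Trmt61a. Mitochondrial ribosomal proteins had 6 higher and 0 lower of 73 (median 0.38), a share of higher genes close to that of all measured genes. Translation initiation factors had 6 higher and 0 lower of 48 (median 0.41). Proteins of the large cytosolic ribosomal subunit had 1 higher, Rpl28, of 28 (median 0.33), a smaller share than that of all measured genes.

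Phosphodiesterases, which break down cyclic nucleotides, had 4 lower and 0 higher of 10 (median -0.74): Pde4b, Pde4dip, Pde6d and Pde8b, of which Pde4dip and Pde6d carry the name without being enzymes of this kind. Intraflagellar transport proteins, which build cilia, had 3 lower and 0 higher of 16 (median -0.43): Ift122, Ift70a1 and Ift70b. Zinc finger genes (Zfp) had 7 higher and 12 lower of 168 (median -0.01), both smaller shares than those of all measured genes. The families were compared with nothing beyond all measured genes, of which 8.94% were higher and 10.2% lower.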
